A study of Mus musculus with 150 samples.

Results

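The Mas-related G-protein-coupled receptors described here were 6 genes, Mrgprd, Mrgpra1, Mrgpra3, Mrgprb4, Mrgprb5 and Mrgpre, taken by name from 54082 genes in the count table, and all 6 were present. The table held 34 symbols of the family in all, Mas1 and several pseudogenes among them. The cells were 150 single somatosensory neurons of CD1 mice (strain #022, Charles River), 1 cell per sample, of which 45 carried the skin label hairy, 1 carried both labels and the remainder carried the label glabrous. They came from 10 litters, 2 of them (K and P_Q) taken at postnatal day 4 with 33 cells, and the others at day 5, on 2 plates and in 5 library batches. No genotype or treatment is named in the labels, so litter, age, plate and skin label are what set cells apart. Each cell held between 395811 and 1053854 counts, so that 10 CPM (a cell's counts scaled to the same total in every cell), the level from which a cell was called positive for a gene, stood for between 3.96 and 10.5 counts.

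Mas-related receptors are found largely in unmyelinated sensory neurons, where they detect itch-inducing and nociceptive ligands, and each adult class of such neurons is known for its own receptor. Mrgprd, which responds to beta-alanine, marks non-peptidergic nociceptors that end in the epidermis, Mrgpra3 is the chloroquine receptor of an itch-sensing class, and Mrgprb4 marks C fibres that respond to stroking of hairy skin. The transcription factor Runx1 is known to control many genes of the family.

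Levels of near-identical family members can be mixed where a read fits both, so the sequences that separate the members come first. All 6 members lie on mouse chromosome 7 (mm10, GENCODE vM21 annotation), on the minus strand except for Mrgprd on the plus strand. Mrgpra1 spans chr7:47334875-47354240, Mrgpra3 chr7:47588950-47601372, Mrgprb5 chr7:48167983-48169019, Mrgprb4 chr7:48198070-48199288, Mrgpre chr7:143778363-143784500 and Mrgprd chr7:145314835-145324086. Over their coding sequences Mrgpra1 and Mrgpra3 were 83.9% identical, Mrgprb4 and Mrgprb5 84.5%, Mrgpra3 and the further family member Mrgpra4 88.6%, and Mrgprd and Mrgpra1 59.2%. The longest run of identical coding bases was 49 between Mrgpra1 and Mrgpra3, 57 between Mrgprb4 and Mrgprb5 and 17 between Mrgprd and Mrgpra3, all shorter than the read length of 75 bases. Mrgpra3 and Mrgpra4 shared a run of 76 bases, shown here beside the closest stretches of Mrgpra1 and Mrgprd because these receptors were found in the same cells. Capitals mark bases that differ from Mrgpra3.
Mrgpra3 (coding bases 216 to 291): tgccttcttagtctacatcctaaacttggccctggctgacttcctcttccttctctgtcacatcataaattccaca
Mrgpra4 (coding bases 159 to 234): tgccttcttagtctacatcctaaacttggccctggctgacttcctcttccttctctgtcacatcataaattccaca
Mrgpra1 (coding bases 216 to 291): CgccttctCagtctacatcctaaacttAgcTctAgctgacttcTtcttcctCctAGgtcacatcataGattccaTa
Mrgprd (coding bases 177 to 252): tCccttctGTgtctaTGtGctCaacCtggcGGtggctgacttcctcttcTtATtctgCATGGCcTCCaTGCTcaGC
The stretch held no difference in Mrgpra4, 11 in Mrgpra1 and 28 in Mrgprd. Of all windows of 75 bases in the transcripts, 0.690% of those of Mrgpra1 and 0.164% of those of Mrgpra3 occurred in another annotated gene, against none for Mrgprd, Mrgprb4, Mrgprb5 and Mrgpre. The counts of Mrgpra2a and Mrgpra2b, with 80.4% and 74.8% of windows shared, are uncertain between those genes.

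Mrgprb5 and Mrgprb4 shared this longest run, printed because one was counted in these cells and the other was close to absent.
Mrgprb5 (coding bases 861 to 917): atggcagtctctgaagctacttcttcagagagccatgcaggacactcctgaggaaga
Mrgprb4 (coding bases 858 to 914): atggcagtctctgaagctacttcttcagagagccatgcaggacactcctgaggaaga
The copies are identical over the run, which is shorter than a read, and no window of 75 bases was shared between these genes.

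The 250 bases before the start sites of Mrgprd and Mrgpra1, which were both positive in 17 of the 150 cells, are given from RefSeq (GRCm38.p6), which held such a window for 5 of the 6 members. Capitals mark matches to TGTGGT or TGCGGT, the core letters bound by Runx factors, on either strand.
Mrgprd (chr7:145314585-145314834, plus strand): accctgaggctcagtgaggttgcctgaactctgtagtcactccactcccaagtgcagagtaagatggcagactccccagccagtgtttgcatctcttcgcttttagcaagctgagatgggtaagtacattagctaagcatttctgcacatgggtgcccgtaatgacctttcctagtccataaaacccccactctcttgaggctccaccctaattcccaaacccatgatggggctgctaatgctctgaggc
Mrgpra1 (chr7:47354241-47354490, minus strand): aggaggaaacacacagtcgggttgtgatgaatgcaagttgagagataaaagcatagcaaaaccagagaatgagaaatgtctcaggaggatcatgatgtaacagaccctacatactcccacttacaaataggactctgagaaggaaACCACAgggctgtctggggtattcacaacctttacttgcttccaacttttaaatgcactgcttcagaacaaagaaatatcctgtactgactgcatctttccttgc
The window of Mrgpra1 held 1 match, on the strand opposite to the gene, and that of Mrgprd held none. No match was present for Mrgprb4, Mrgprb5 or Mrgpre. Among 32851 windows of all genes 18.6% held a match, and 3 of 18 family windows did.

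Most of the receptors were counted in neurons with little Nefh, the heavy neurofilament chain typical of large myelinated neurons. With a limit of 500 CPM of Nefh, 46 cells were Nefh-low, 20 glabrous and 26 hairy, and the other cells were not. The cell nearest below the limit had 377 CPM (M1) and the nearest above it 623 CPM (h9). Of the Nefh-low cells, 10 (7 glabrous, 3 hairy) were also low in the neuron markers Tubb3, Uchl1, Stmn2 and Prph, with sums from 181 to 2742 CPM against at least 5757 CPM in the other Nefh-low cells, and 5 of them had under 10000 detected genes. They go against the label of a neuron, so many results are given with and without them. This limit was chosen after the values were seen.

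Mrgprd, the epidermal nociceptor receptor, was the member with the highest level. It was positive in 17 of 46 Nefh-low cells (36.96%, exact 95% interval 23.2% to 52.5%) and in 6 of the cells with more Nefh (5.77%, 2.15% to 12.1%). These intervals cover counting error only, since cells of a litter are not independent. The level in positive Nefh-low cells differed widely. In the 9 glabrous ones Mrgprd had a lowest level of 711 CPM (O7), a median of 1203 CPM and a highest of 2141 CPM (h8). In the 8 hairy ones it had a lowest level of 10.2 CPM (L5), a median of 76.2 CPM and a highest of 756 CPM (h4). Apart from h4 every positive hairy cell lay under every positive glabrous cell, and 2 of the hairy ones, P5 with 172 CPM and O3 with 66.9 CPM, were low in neuron markers. Without those, the median of the hairy cells was 65.9 CPM over 6 cells.

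The same order was seen inside each litter that had positive Nefh-low cells of both labels, a comparison chosen after the values were seen and not tested. Litter H had 2141 and 1197 CPM in its glabrous cells h8 and h1, against 756 CPM in the hairy cell h4. Litter E_F_G had 1929 and 1203 CPM in the glabrous cells g3 and g2, against 313, 85.5 and 46.2 CPM in the hairy cells f8, f9 and f11. Litter O had 711 CPM in the glabrous cell O7 and 66.9 CPM in the hairy cell O3, which was low in neuron markers. The plate moved with these values: 12 of the 17 positive cells were on plate 1, which held 17 glabrous and 4 hairy Nefh-low cells, while plate 2 held 3 and 22. The order was the same within plate 1, which holds litters H and E_F_G. The skin labels also differed in other cell types' RNA, in both directions. The 6 Schwann cell markers had a summed median of 4948 CPM (841 to 40456) in hairy Nefh-low cells. In glabrous ones it was 2263 CPM (349.6 to 16409). Macrophage markers were also higher in hairy cells (15.5 against 7.70 CPM). Satellite glia (1064 against 1612 CPM), fibroblast (582 against 775 CPM) and blood markers (17.3 against 22.7 CPM) were lower. These medians keep the cells low in neuron markers, 7 of 20 glabrous and 3 of 26 hairy, and were not computed without them. The Schwann cell sum of those 10 cells had a median of 10201 CPM. In sums within litters, 2 of the 6 Schwann cell markers were higher in hairy Nefh-low cells. Their median log2 difference was -0.56, against 0.56 over all genes. The part of this RNA was not tested.

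**Figure D1:**
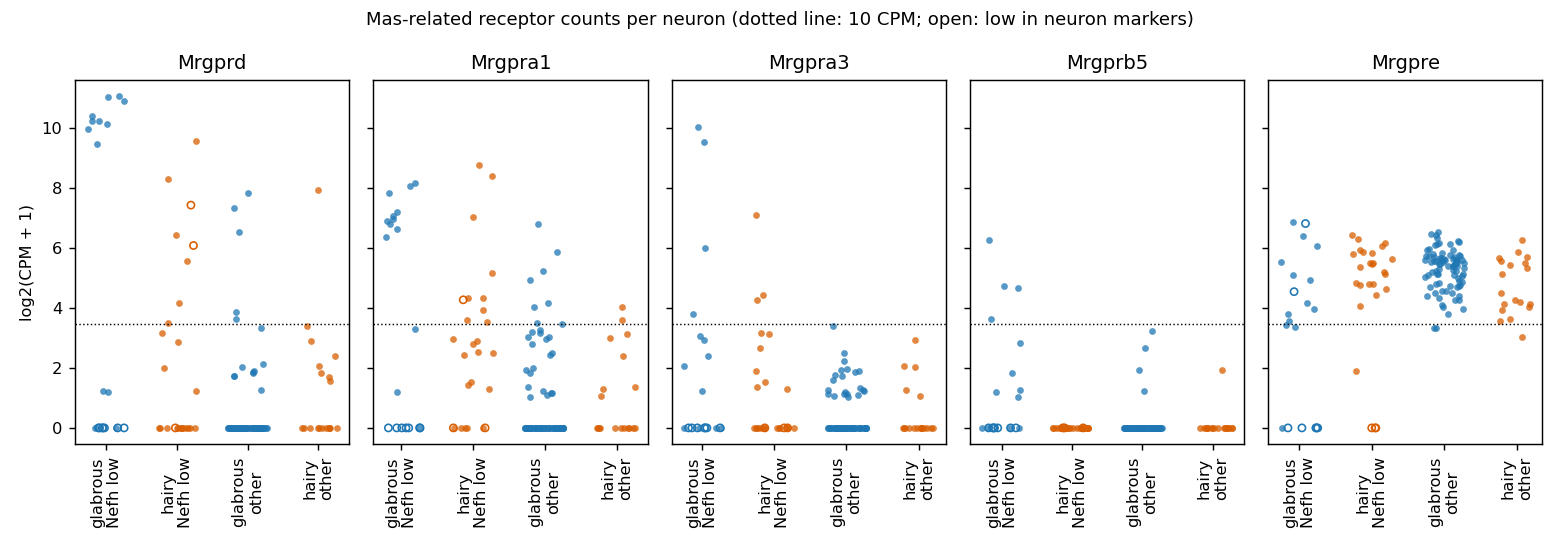
Each point is 1 neuron, with log2(CPM + 1) of a receptor on the vertical axis and neurons split by skin label and by Nefh (low: under 500 CPM) on the horizontal axis. The dotted line is 10 CPM and open points are the 10 cells low in neuron markers. Mrgprd in the 9 positive glabrous Nefh-low cells reached 711 to 2141 CPM, and Mrgpre was spread over all 4 classes.

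Mrgpra1, a receptor of RFamide-type peptides, was positive in more cells but at lower levels. It reached 10 CPM in 20 of 46 Nefh-low cells (43.5%, 28.9% to 58.9%) and in 10 of the cells with more Nefh (9.62%, 4.71% to 16.97%). The 10 positive glabrous Nefh-low cells had a lowest level of 80.95 CPM (h2), a median of 129.3 CPM and a highest of 288 CPM (h1). The 10 positive hairy ones had a lowest level of 10.5 CPM (P15), a median of 19.1 CPM and a highest of 434 CPM (h4). Here the groups overlapped, since the hairy cells h4, f11 (336 CPM) and L4 (130.95 CPM) lay among or above the glabrous cells.

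Mrgpra3, the chloroquine receptor, was positive in 7 cells, all of them Nefh-low and none of them low in neuron markers. A pair of glabrous cells of different litters stood out, I5 with 1062 CPM and h1 with 743 CPM, both from library batch 3. The other glabrous cells had 62.5 CPM (O7) and 12.9 CPM (g2), and the hairy cells of litter E_F_G had 136.9 CPM (f8), 20.7 CPM (f9) and 18.2 CPM (f11). No cell with more Nefh was positive, and the highest of them had 9.53 CPM.

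The 2 members of the b subfamily were rare. Mrgprb5 was positive in 4 glabrous Nefh-low cells, with 76.8 CPM in g3, 25.5 CPM in I17, 24.7 CPM in h1 and 11.5 CPM in g2. Among hairy cells its highest level was 2.86 CPM, in 1 of 45 cells. All 4 positive cells were on plate 1, which held 17 glabrous but only 4 hairy Nefh-low cells, so skin label and plate cannot be told apart here. Mrgprb4, the receptor of stroking-responsive C fibres in hairy skin, had 2 counts in all, both in the glabrous cell I5 (2.45 CPM). It was positive in 0 of 45 hairy cells, where 3 cells would be a share of 6.67% and the exact 95% upper limit is 7.87%, and in 0 of all 150 cells, where these are 2.00% and 2.43%. Mrgprb4-positive cells were not detectable at this number of cells.

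Mrgpre, a receptor without an established ligand, behaved unlike the other 5 members. It was positive in 90% of all 150 cells (84.04% to 94.3%), in 97.1% of the cells with more Nefh and in 34 of 46 Nefh-low cells (73.9%). Its highest level was 115.4 CPM (I19), and its median was 37.3 CPM over all cells. In Nefh-low cells without the 10 low in neuron markers the median was 16.9 CPM in 13 glabrous cells and 42.8 CPM in 23 hairy cells. Among the 10 cells low in neuron markers it was positive in I27 (111.96 CPM) and I28 (22.4 CPM) and had no count in the other 8.

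The other 28 family symbols were mostly low or absent. Of them, 10 were positive in at least 1 cell and 2 reached 50 CPM. Mrgprx1, a receptor of peptides from the adrenal medulla, was positive in 20 cells with a highest level of 71.3 CPM (h1). The pseudogene Mrgprx3-ps was positive in 14 cells with a highest level of 169 CPM (g3). Mrgpra4 was positive in 9 cells with a highest level of 24.4 CPM (h4). Mas1 was positive in 4 cells, none of them Nefh-low, with a highest level of 33.8 CPM (I18). The mast cell receptor Mrgprb2 had 1 count in all, and the mast cell markers Cpa3, Cma1, Tpsb2, Mcpt4 and Fcer1a were below 10 CPM in every glabrous and hairy cell.

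Several receptors were counted in the same neuron. Leaving out the broad Mrgpre, 23 of 46 Nefh-low cells were positive for none of the 5 other members, 9 for exactly 1, 5 for 2, 7 for 3 and 2 for 4. That gives 14 cells with at least 2 receptors, or 14 of 36 without the cells low in neuron markers, against 3 of the cells with more Nefh. Those 14 cells were 9 glabrous and 5 hairy, from 6 litters and all 5 library batches, and 12 of them were on plate 1. None was taken at day 4, when the 9 Nefh-low cells were all hairy. Their total counts had a median of 759483, against 677868 in the 16 Nefh-low cells with no receptor that were not low in neuron markers, and their detected genes a median of 13624 against 13393. The part of this difference in depth in the co-detection was not tested.

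Mrgprd and Mrgpra1 formed the base of these combinations. All 14 cells were positive for both. Mrgpra1 was positive in 14 of 17 cells with Mrgprd and in 6 of 29 without it. All 7 cells with Mrgpra3 and all 4 with Mrgprb5 were positive for Mrgprd and Mrgpra1 as well. Over 46 Nefh-low cells the Spearman correlation of CPM was 0.74 between Mrgprd and Mrgpra1, 0.56 between Mrgprd and Mrgpra3, 0.65 between Mrgprd and Mrgprb5 and -0.10 between Mrgprd and Mrgpre. Over the 36 cells without those low in neuron markers these were 0.82, 0.54, 0.66 and -0.33 in the same order. Mrgpre was positive there in 11 of 15 cells with Mrgprd and in 21 of 21 without it. These cells share libraries and litters, and the values are descriptions.

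The richest combinations were in 2 glabrous cells of different litters. Cell h1 had 1197 CPM of Mrgprd, 743 CPM of Mrgpra3, 288 CPM of Mrgpra1 and 24.7 CPM of Mrgprb5. Cell g2 had 1203 CPM of Mrgprd, 145.2 CPM of Mrgpra1, 12.9 CPM of Mrgpra3 and 11.5 CPM of Mrgprb5. In cell I5, with 1350 CPM of Mrgprd and 1062 CPM of Mrgpra3, the epidermal and the itch receptor were at a similar level, with 124.85 CPM of Mrgpra1 beside them. Not every cell high in Mrgprd had Mrgpra3: h8 (2141 CPM of Mrgprd) and I25 (2094 CPM) had no count of it. The reverse was not seen, as no Mrgpra3-positive cell had under 46.2 CPM of Mrgprd.

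**Figure D2:**
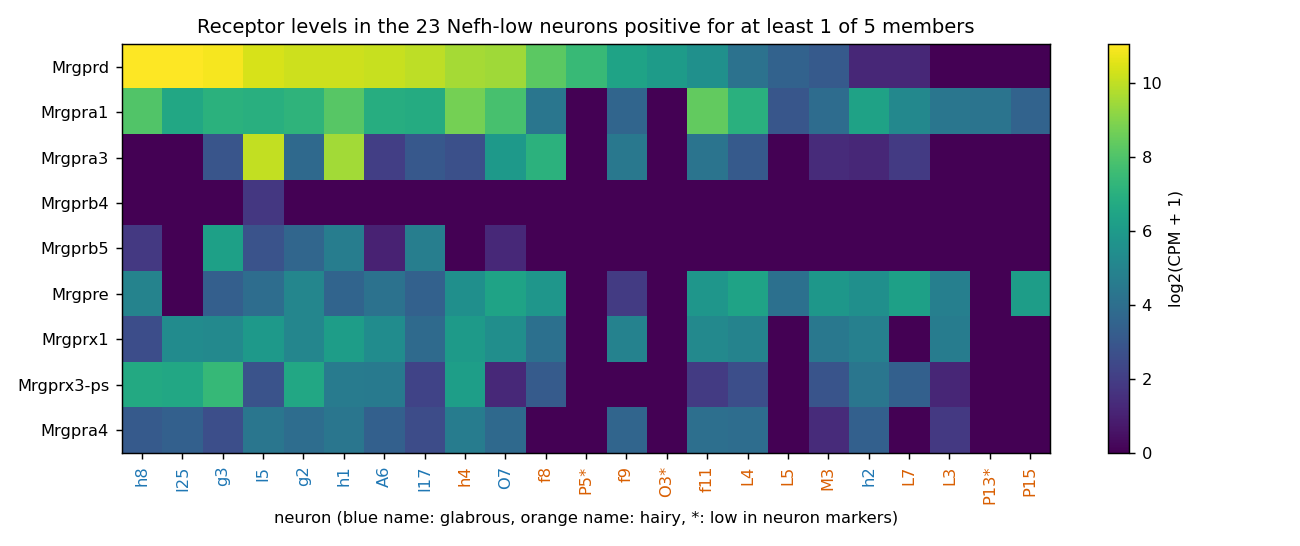
Columns are the 23 Nefh-low neurons positive for at least 1 of 5 members, ordered by Mrgprd, rows are receptors, and the colour is log2(CPM + 1). The 10 neurons with Mrgprd at 711 CPM or more on the left all have Mrgpra1, while Mrgpra3 is high in I5 and h1.

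Within the 14 cells, Mrgprd was the highest of the 5 members in 12 cells and Mrgpra1 in the other 2, f11 and L4. Mrgprd took 67.1% of all family counts there, Mrgpra1 11.3%, Mrgpra3 9.97%, Mrgprx3-ps 2.89%, Mrgprx1 2.44% and Mrgpre 2.10%. Of the 1636 counts of Mrgpra3 in these cells, 868 were in I5 and 542 in h1, so its share rests on those cells. Mrgprx1 was positive in 13 of the 14 cells and in all 7 with Mrgpra3. Counting every family symbol, a cell was positive for at least 4 of them, with a median of 6 and a highest number of 11. Per kilobase of annotated exon the median level was 339 CPM for Mrgprd, 121.6 CPM for Mrgpra1, 8.03 CPM for Mrgpra3 and 6.19 CPM for Mrgpre. No source used here says whether the deposited counts were already scaled for length, and the order of these 4 members by plain CPM places Mrgpre (23.3 CPM) above Mrgpra3 (10.4 CPM).

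**Figure D3:**
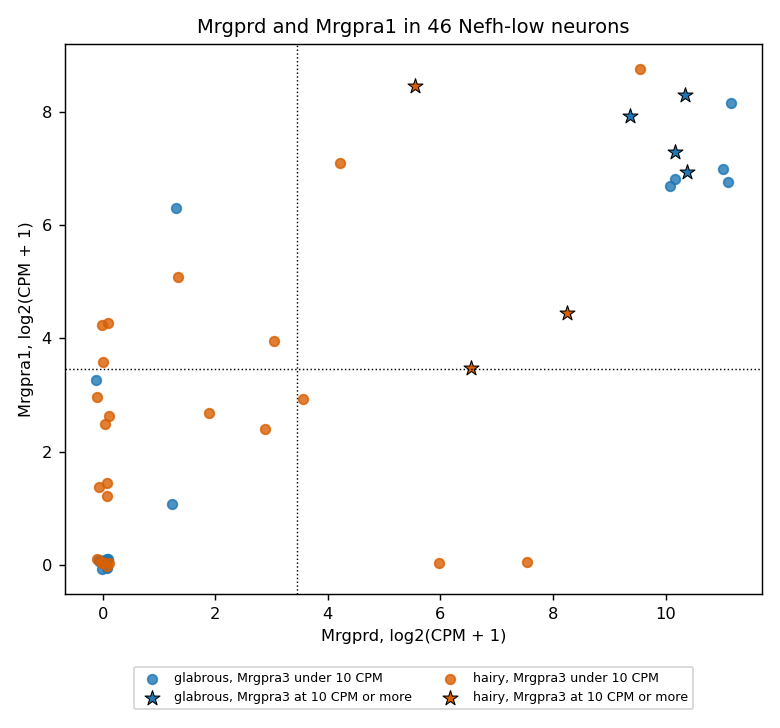
Each point is 1 of 46 Nefh-low neurons, with log2(CPM + 1) of Mrgprd on the horizontal and of Mrgpra1 on the vertical axis, both slightly jittered. Dotted lines are 10 CPM, stars are cells positive for Mrgpra3 and colours give the skin label. All 7 stars lie in the upper right field, where both other receptors are positive.

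Genes that varied with the members over the 46 Nefh-low cells were ranked by Spearman correlation among 12794 genes. For Mrgprd the 8 highest included Lrrn4 (0.78), Dlx3 (0.78), Wnt16 (0.78), Gm7255 (0.77), Ly86 (0.76), Cyp2j12 (0.76) and Galnt5 (0.75). Lrrn4, a leucine-rich repeat membrane protein, and Wnt16, a secreted Wnt ligand, had no count in any of the 21 Mrgprd-negative cells once the cells low in neuron markers were left out, and had up to 39.7 and 24.7 CPM in the 15 positive ones. Ly86, a partner of a Toll-like receptor relative, had a median of 140 CPM in those 15 cells and 13.2 CPM in the 21. Since these genes were picked by their correlation with Mrgprd in the same cells, such contrasts follow from the choice. The lowest 4 were the mitochondrial ribosomal RNA mt-Rnr1 (-0.58), Clec2l (-0.57), the synaptic vesicle protein Syt2 (-0.57) and Pygo1 (-0.56). After centring within litters the correlation was 0.52 for Gm7255 and 0.74 for Wnt16 among the highest, and weakened to -0.38 for mt-Rnr1 and -0.30 for Pygo1 among the lowest.

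For Mrgpra1 the highest were Rgs3 (0.87), a regulator of G-protein signalling, Nrn1l (0.85), Mrgpra4 (0.82), Cyp2j12 (0.82), Fam189b (0.82), the fibroblast growth factor relative Fgf13 (0.81), Syt5 (0.81) and Mrgprx1 (0.81). The lowest were mt-Rnr1 (-0.70), Gm28437 (-0.66), mt-Nd4 (-0.64) and mt-Co2 (-0.63), and centred within litters they were -0.51, -0.44, -0.43 and -0.41 in the same order. Across all genes the median correlation with Mrgpra1 was 0.17 and 75.6% were positive. Without the cells low in neuron markers these were -0.02 and 46.8%. The 8 highest genes then ran from 0.78 (Fgf13) to 0.86 (Rgs3). With Mrgpra3 the median across all genes was 0.12, or -0.01 without those cells. For Mrgpra3 the highest were the zinc finger factor Insm2 (0.76), Mrgpra2b (0.75), Stk32a (0.75), Tspan8 (0.75), Gm7255 (0.74), Casp1 (0.72), Mrgprx1 (0.71) and Traf3ip3 (0.70), and the lowest Hmgb1 (-0.56), mt-Rnr1 (-0.55), Ifitm3 (-0.53) and Nab1 (-0.52), of which mt-Rnr1 weakened to -0.30 after centring within litters. Cyp2j12 was thus shared by the lists of Mrgprd and Mrgpra1, Gm7255 by those of Mrgprd and Mrgpra3, and Mrgprx1 by those of Mrgpra1 and Mrgpra3.

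Mrgpre had other companions: Ece2 (0.65), an endothelin-converting enzyme, Inha (0.64), Dctn4 (0.63), Apbb1 (0.63), the kainate receptor subunit Grik4 (0.63), Eme2 (0.62), Fbxo21 (0.61) and Abhd16a (0.61). Its lowest were Rpl30 (-0.61), Rps28 (-0.60), Alyref (-0.57) and Rps3 (-0.55). Without the cells low in neuron markers the correlation with Mrgpre weakened to 0.39 for Ece2, 0.35 for Inha and 0.35 for Grik4. Among the lowest it weakened to -0.31 for Alyref and -0.35 for Rps3. Eme2 (0.59) and Dctn4 (0.58) moved less. Only 2 of these 8 highest genes remained among the 8 highest without the cells low in neuron markers, against 5 of 8 for Mrgprd, 4 for Mrgpra1 and 7 for Mrgpra3.

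Known genes of the non-peptidergic nociceptor went with Mrgprd more than most genes did. Over the 36 Nefh-low cells without those low in neuron markers, 12 of 14 such genes correlated positively and 6 reached 0.5, with a median of 0.43, while over all 12633 genes the median was -0.01, 47.9% were positive and 3.31% reached 0.5. With the cells low in neuron markers kept, 14 of 14 were positive with a median of 0.35. Over all genes the median was then 0.07 and 63.1% were positive. The list was chosen with earlier results of these data known. Plate and skin label moved with Mrgprd in the 36 cells without those low in neuron markers. It was positive in 12 of 15 cells on plate 1 and in 3 of 21 on plate 2. By skin label it was positive in 9 of 13 glabrous and 6 of 23 hairy cells. The part of plate and skin label in these and the following contrasts by Mrgprd was not tested. The decay-accelerating protein Cd55 had a median of 449 CPM in 15 Mrgprd-positive and 119.2 CPM in 21 negative cells. Plxnc1, a semaphorin receptor, had 124.8 against 18.4 CPM, and Ret, the receptor of glial cell line-derived factors, 809 against 322 CPM. The sodium channel gene Scn10a had 893 against 459 CPM and Scn11a 471 against 209 CPM. The ATP receptor gene P2rx3 (182 against 191 CPM) and Gfra2 (97.2 against 120 CPM) had similar medians in both.

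Genes of receptor signalling had a median correlation of 0.21 with Mrgprd, or 0.31 with the cells low in neuron markers kept. Of 18 genes 15 were measured, and 3 reached 0.5 without those cells. These were the phospholipase Plcb3 (median 365 against 42.4 CPM), the G-protein subunit Gna14 (247 against 2.68 CPM) and Gnao1 (774 against 381 CPM). The phospholipase gene Plcb4 went the other way (13.2 against 35.5 CPM, correlation -0.42). Trpa1 reached 889 CPM and Trpv1 906 CPM in single Mrgprd-positive cells, with medians of 47.4 and 25.4 CPM.

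Regulators of the family were mixed without the cells low in neuron markers, with 5 of 10 positive and a median of 0.08. With those cells kept, 8 of 10 were positive and the median was 0.26. The values that follow leave those cells out. Runx1 was lower in the Mrgprd-positive cells, with a median of 65.8 CPM against 139.05 CPM and a correlation of -0.44, and was at or above 10 CPM in 15 of 15 and 20 of 21 cells. Prrxl1 was lower too (196 against 524 CPM, -0.45), while the zinc finger factor Insm1 was higher (9.72 against 2.74 CPM, 0.51), as was Klf7 (578 against 389 CPM, 0.44). The split by Mrgprd also followed skin label and plate, and their part was not tested. In the fit over all neurons, 7 of 9 tested regulators were higher in hairy cells and none was called. Among those 7 were Runx1 by 2.72, Prrxl1 by 1.02 and Klf7 by 0.36 (log2).

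Lists of other sensory classes had lower medians. A-fibre genes had 4 of 7 measured correlations with Mrgprd above 0 and a median of 0.16. C-fibre touch genes had 1 of 5 measured correlations above 0 and a median of -0.22, among them Tafa4 (83.5 against 651 CPM) and Zfp521 (2.40 against 122.9 CPM). An exception was Th, the tyrosine hydroxylase of touch-sensing C fibres, at 492 CPM in I17, 439 CPM in A6 and 215 CPM in I25, all 3 of them high in Mrgprd. In the fit over all neurons, 4 of 5 tested C-fibre touch genes were higher in hairy cells. Tafa4 was higher by 4.30 and Zfp521 by 1.86, while Th differed by -0.80 (log2). Peptidergic genes had 2 of 7 above 0 and a median of -0.20. These list values leave out the cells low in neuron markers. With those cells kept, the peptidergic median was 0.055 with 4 of 7 genes above 0. The C-fibre touch median was then 0.039 with 3 of 5 above 0, and the A-fibre median 0.065 with 4 of 7. The median over all genes also rose, from -0.01 to 0.07. The signs of the peptidergic and C-fibre touch medians thus depended on leaving those cells out. Of the itch list, 2 of 10 genes were measured: Osmr was positive in 6 of 15 and 0 of 21 cells and Npy2r in 2 and 9, while Sst had no count and Nppb no more than 7.89 CPM in these cells.

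Markers of neighbouring cell types were lower in the cells with several receptors. The 6 Schwann cell markers, all of them detected, had a summed median of 2118 CPM (841 to 9487) in the 14 cells with at least 2 receptors and of 4892 CPM (1346 to 22274) in 22 other Nefh-low cells that were not low in neuron markers. The 5 fibroblast markers had 283 CPM (0 to 1880) against 848 CPM (83.1 to 11000), and the 5 satellite glia markers 406 CPM (23.3 to 4347) against 1263 CPM (102.9 to 5263). Their part in the correlations was not tested.

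**Figure D4:**
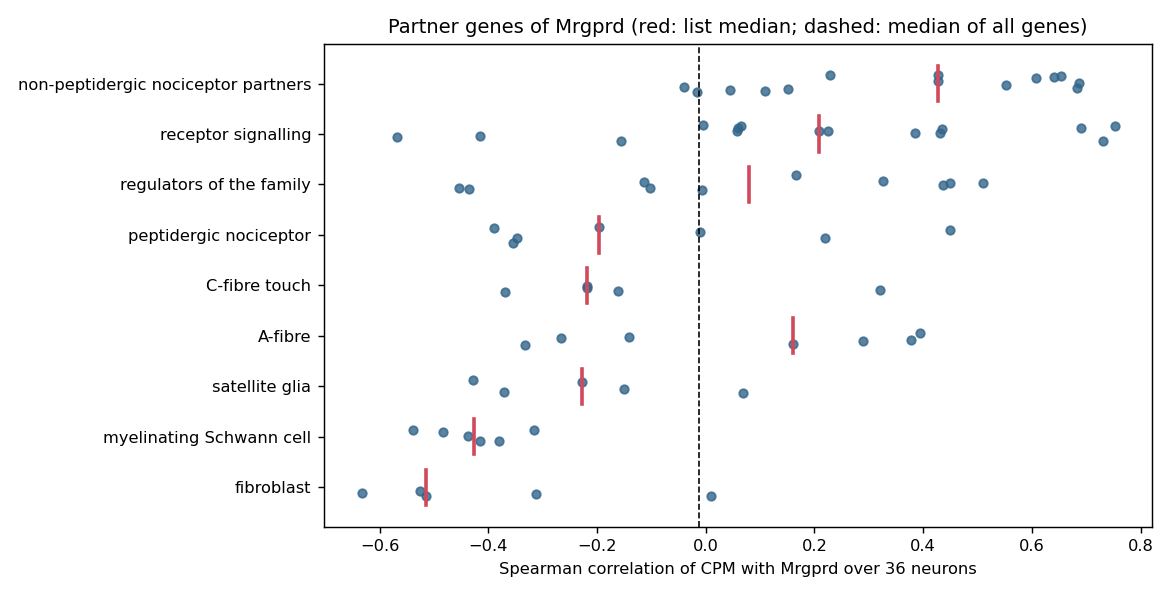
Each point is 1 gene of a list, placed by its Spearman correlation of CPM with Mrgprd over 36 Nefh-low neurons that were not low in neuron markers. Red bars are list medians and the dashed line is the median of all genes (-0.01). The non-peptidergic list lies highest with a median of 0.43, and the Schwann cell and fibroblast lists lie lowest.

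Whether the receptors differ between neurons of hairy and of glabrous skin was asked over litters, since each sample is 1 cell. Of all neurons, Mrgprd was positive in 14 glabrous and 9 hairy cells, Mrgpra1 in 18 and 12, and Mrgpre in 94 and 40. In 7 litters with at least 2 cells of each label the share of Mrgprd-positive cells was 14.7 percentage points higher in hairy cells (± 20.7, SD, n = 7 litters; exact two-sided sign-flip permutation p = 0.188), with 4 litters higher, 1 lower and 2 equal. For Mrgpra1 the difference was 6.83 points (± 41.4, SD, n = 7 litters; exact permutation p = 0.688) and for Mrgpre -1.82 points (± 20.2, SD, n = 7 litters; exact permutation p = 0.813). These 3 tests are unadjusted, and the smallest p that 7 litters allow is 0.0156. Each mean difference was smaller than its SD between litters, a spread that does not measure the uncertainty of the mean. The hairy cells of these litters, C_D excepted, also held a higher share of Nefh-low cells than the glabrous ones, such as 3 of 5 against 3 of 31 in litter E_F_G.

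**Figure D5:**
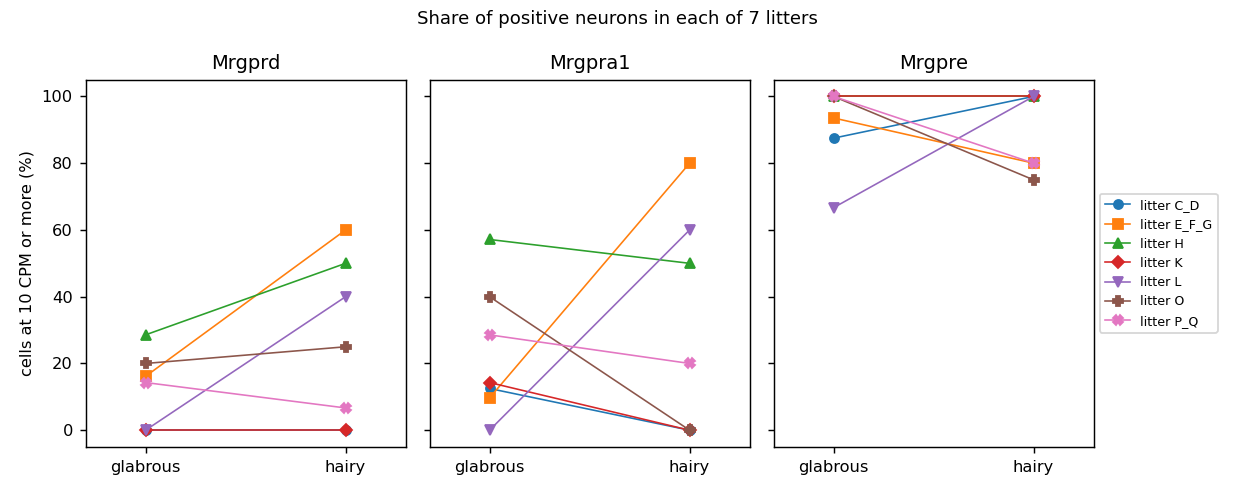
Lines join the share (%) of neurons at 10 CPM or more among the glabrous and the hairy cells of each of 7 litters, for 3 receptors. Mrgprd is higher in the hairy cells of 4 litters, and Mrgpra1 is higher in the hairy cells of 2 and lower in those of 5.

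Counts summed per litter and skin label gave no call for a member either. Over all neurons edgeR's quasi-likelihood test with litter as a block and Benjamini-Hochberg adjustment called 12 of 12852 genes (0.0934%), and 0 of the 3 members that passed the filter on low counts. Mrgprd was higher in hairy cells by 0.26 ± 0.73 (log2, SE; adjusted p = 0.934 in edgeR), Mrgpra1 differed by -0.03 ± 1.09 (adjusted p = 0.998 in edgeR) and Mrgpre by -0.28 ± 0.24 (adjusted p = 0.747 in edgeR). Mrgpra3, Mrgprb4 and Mrgprb5 did not pass the filter. Of the partner lists, only Zfp521 of the C-fibre touch list was called, higher in hairy cells by 1.86 (log2; adjusted p = 0.0465 in edgeR), and 0 of 11 non-peptidergic genes tested were. That call was lost without any 1 litter other than C_D (adjusted p = 0.0746 without H to 0.173 without P_Q in edgeR), without the litter block (adjusted p = 0.0961 in edgeR), with at least 1 cell of each label (adjusted p = 0.838 in edgeR) and on plate 1 or plate 2 alone (adjusted p = 0.997 and 0.176 in edgeR). It was kept with DESeq2 (adjusted p = 3.15e-09 in DESeq2) and with no filter on low counts (adjusted p = 8.34e-07 in edgeR). It was also kept with RLE scaling, without cells under 10000 genes and without cells low in neuron markers (adjusted p = 0.0435, 0.0415 and 0.0403 in edgeR). The difference itself stayed between 1.65 (without O) and 1.96 (without E_F_G) when a litter was left out.

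Among Nefh-low cells, 5 litters had both labels and edgeR called 0 of 11055 genes (0%), while 55 genes had an unadjusted p below 0.05 and DESeq2 made 4 calls, none of them a member. In hairy against glabrous sums Mrgprd differed by -1.07 ± 1.32, Mrgpra1 by 0.97 ± 1.64, Mrgpra3 by -2.23 ± 2.22 and Mrgpre by 0.62 ± 1.28 (log2, SE; adjusted p = 0.995 for each in edgeR). The median of all genes was shifted by 0.56 in this fit and by 0.006 without the cells low in neuron markers. In that second fit, over 4 litters, Mrgprd differed by -2.99, Mrgpra3 by -3.06 and Mrgpra1 by -0.66, and none passed the threshold. Leaving out litter O moved Mrgprd to 0.0895, Mrgpra3 to -0.52 and Mrgpra1 to 2.23. Some sums here hold 1 cell, and fewer cells of a type cannot be told apart from less RNA per cell in any of these sums.

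Age was compared in glabrous cells, over 2 litters at day 4 and 7 at day 5 with at least 2 such cells. Mrgprd had 10 counts in all in 14 glabrous cells at day 4 (0.945 CPM, exact Poisson interval 0.453 to 1.74) and 10515 counts in 90 cells at day 5 (153 CPM, 151 to 156), intervals that cover counting error only. These 90 cells come from 8 litters, since they include the single glabrous cell of litter M, which the fit left out. Mrgprb5 had 0 and 130 counts, Mrgpra3 9 and 1510, Mrgpra1 94 and 1420 and Mrgpre 428 and 2659. The difference was 7.42 ± 2.66 for Mrgprd, 4.64 ± 2.40 for Mrgpra3, 1.64 ± 1.44 for Mrgpra1 and -0.01 ± 0.29 for Mrgpre (log2, SE), and edgeR called 0 of 15185 genes (0%), while 422 had an unadjusted p below 0.05 and DESeq2 made 3 calls, none of them a member. Without litter P_Q the difference was 13.63 for Mrgprd and 4.14 for Mrgpra1, and for Mrgpra1 it was 0.76 without K and 0.98 without H. None of the 14 glabrous cells at day 4 was Nefh-low, against 20 of 90 at day 5, so age and the kind of neuron sampled cannot be told apart here. The 9 Nefh-low cells of day 4, all hairy, had Mrgprd in P5, which was low in neuron markers, and Mrgpra1 in P13 (18.3 CPM) and P15 (10.5 CPM).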

How the data were processed

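Full-length cDNA of 150 single neurons was read in pairs of 75 bases, per the labels. The authors deposited expected counts (estimated counts per gene) made with FastQC, cutadapt, Salmon and mm10, per the submitters' processing notes. The sources used here give no tool versions, no annotation and nothing on scaling for transcript length. The counts were whole numbers and were divided by each cell's total to give CPM. A cell was positive for a gene at 10 CPM. The members and gene lists were chosen with earlier results of these data known.

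Each sample was 1 cell, so tests ran over litters: counts were summed per litter and skin label, filtered with filterByExpr, scaled by TMM and tested with edgeR 4.0.16 (R 4.3.3) at an adjusted p of 0.05, with litter as a block. The SE given with an edgeR difference was derived from its test, as the absolute log2 difference divided by the square root of the F statistic. DESeq2 1.42.0 was an alternative. The labels give each litter, so pairing by litter comes from them. Deviations of the hairy and the glabrous sum of a litter from their group means correlated between -0.08 (L) and 0.26 (K), and 4 of 7 litters correlated best with their own partner. Nothing says which cells of a litter share an animal. The test script was checked on simulated counts. Shares were compared by an exact sign-flip permutation over litters (Python 3.11.15, numpy 2.4.6, pandas 2.3.3).

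Named genes were the 6 members, every other family symbol, the 8 genes with the highest and the 4 with the lowest Spearman correlation (scipy 1.17.1) with each member positive in at least 5 Nefh-low cells, among genes at 10 CPM in at least 10% of these cells, and examples of the fixed lists. A gene that the rule names and the text does not is not reported here. Coding sequences came from GENCODE vM21 and were aligned with Biopython 1.88. Promoter windows came from RefSeq. Alternatives were other scaling, filters, thresholds, litters and plates.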

Additional observations from a re-analysis of the deposited data

Results flagged for a closer look

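For each member the CPM of litter sums with at least 2 cells of a skin label was screened. The screen looked for a litter far from the others, in 11 groups of 8 or 9 litters. A litter stood apart in 5 of them. The limit used marks about 1 in 20 groups by chance only if the sums spread normally. That need not hold here, since many sums held few counts and some that stood apart rested on 1 cell. The chance rate is therefore unknown, and 5 of 11 cannot be set against 1 in 20. Among hairy cells litter H was highest for Mrgprd (383.9 CPM, next 94.7 CPM) and for Mrgpra1 (220.5 CPM, next 69.7 CPM), both from the cell h4, 1 of only 2 hairy cells of that litter. For Mrgpra3 the glabrous cells of litter H stood out (97.4 CPM, next 37.3 CPM) through h1, 1 of 7 cells, and the hairy cells of litter E_F_G (39.3 CPM, next 2.75 CPM) through f8, f9 and f11. For Mrgpre the hairy cells of litter L were highest (52.5 CPM, next 36.8 CPM), with 5 of 5 cells positive. The single cell with both skin labels, B1, which entered no comparison, had 25.1 CPM of Mrgpre, above the 3.76 CPM that 3 counts stand for in it.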

How the results depend on the processing

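The fits over litters were sensitive to the processing, and no setting that was run called a member. Over all neurons 12 genes were called, against 337 with DESeq2, 342 with no filter on low counts, 1 with at least 1 cell of each label, 0 on plate 1 alone and 0 on plate 2 alone, and from 0 to 15 when a litter was left out (0 without K, O or P_Q, 1 without L, 2 without E_F_G, 7 without H). In Nefh-low cells DESeq2 called 4 genes in place of 0. For age it called 3 in place of 0, and leaving out a litter gave 0 to 1 (1 without E_F_G). Without the litter as a block the pairing was dropped and 11 genes were called over all neurons and 0 in Nefh-low cells. In that unblocked fit Mrgprd turned to -0.46 and Mrgpra1 to 0.88 over all neurons. On plate 1 alone these were -0.049 and 1.21, and without cells under 10000 genes Mrgprd was -0.45. Leaving out a litter moved Mrgprd from -0.21 to 0.99 and Mrgpra1 from -0.84 to 0.76. In Nefh-low cells Mrgpra1 turned to -0.034 with Nefh under 1000 CPM, -0.68 without cells under 10000 genes and -0.66 without cells low in neuron markers, and Mrgpre to -0.25 and -0.15 in the latter pair. Leaving out a litter gave -0.51 to 2.23 for Mrgpra1, -2.45 to 0.0895 for Mrgprd -0.16 to 1.303 for Mrgpre and -3.22 to -0.52 for Mrgpra3 (lowest without L and highest without O for Mrgpra1, Mrgprd and Mrgpra3; Mrgprd was -0.06 without E_F_G and -1.67 without M, and Mrgpra1 1.66 without E_F_G and 0.40 without M). For age Mrgpre was 0.19 in hairy cells, 0.0083 without cells under 10000 genes and 0.015 without cells low in neuron markers, and -0.27 to 0.29 without a litter, Mrgprd was 3.46 in hairy cells and 6.32 (without K) to 13.63 (without P_Q) without a litter, and Mrgpra1 0.76 to 4.14 in the latter. The cause was not tested. The share difference of Mrgpra1 was -1.13 points at 50 CPM, and -3.75 to 14.6 points without a litter, that of Mrgpre 20 points in Nefh-low cells and -7.67 to 2.05 points without a litter, and that of Mrgprd 9.80 to 18.4 points without a litter, 24.8 points at 1 count, 8.60 at 50 CPM, 2.63 at 100 CPM and 8 in Nefh-low cells. Cells with at least 2 receptors numbered 24 with 1 count as the threshold, and stayed within 1.5 times 14 at 50 and 100 CPM. The genes ranked highest or lowest for a member kept the sign of their correlation under 4 settings. Of these values, 61 of 192 moved by 0.1 or more. The genes were picked as the most extreme in largely the same cells, so their kept sign says little. The fixed gene lists were not part of this check. Leaving out the cells low in neuron markers lowered the C-fibre touch genes positive with Mrgprd from 3 to 1 of 5. For the regulators it went from 8 to 5 of 10. A fit with at least 2 Nefh-low cells of each label gave no value, since 1 litter remained. Leaving out the cells low in neuron markers was chosen after seeing the data. Depth limits calls near 10 CPM, which stand for few counts.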
